A study of Drosophila melanogaster with 4 samples.

Results

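The odorant (Or), gustatory (Gr) and ionotropic (Ir) receptor genes of *Drosophila melanogaster* were placed on the chromosome contact maps of BG3 and Kc167 cells. Members were the protein-coding genes whose symbol is Or, Gr or Ir followed by a number and lower case letters. This took 179 of the 13945 protein-coding genes on arms 2L, 2R, 3L, 3R, 4 and X, namely 59 Or, 60 Gr and 60 Ir genes. Of these, 154 were autosomal (51 Or, 54 Gr and 49 Ir) and 25 were X-linked, and none lay on chromosome 4. BG3 cells are male and neuronal, established from the central nervous system of larvae, whereas Kc167 cells are female and come from embryos. The paper gives Schneider's medium with serum, insulin and antibiotics for BG3 and describes no medium for Kc167. It names no treatment or engineering of either line. Contacts were measured by in situ Hi-C, in which crosslinked chromatin is cut with the enzyme DpnII at the letters GATC, ligated and sequenced. The study compared the lines to ask how topologically associating domains (TADs), stretches of chromosome that contact themselves more than their surroundings, and the borders between them differ between neuronal and embryonic cells.

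Insects smell and taste with 3 families of receptor proteins. Or proteins form membrane channels with the co-receptor Orco and are opened by airborne odorants. Gr proteins are related channels that respond to sugars, bitter compounds or carbon dioxide. Ir proteins descend from ionotropic glutamate receptors, assemble with broadly used co-receptors and detect acids, amines, humidity and temperature. Most of these genes are expressed in few sensory neurons of the antenna, maxillary palp, proboscis or legs, and many sit in tandem arrays. Expression was not measured in these files, so neither the labels of the lines nor the activity of the receptor genes was checked.

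The maps held 2253 TADs and 865 loops in BG3 and 2506 TADs and 1409 loops in Kc167, and a stringent list held 982 TADs in BG3 and 1300 in Kc167. A loop is a pair of 2 kb anchors that contact each other more than their neighbourhood. The pixels of the loop lists held 12 to 324 contacts in BG3, with a median of 52, and 12 to 441 in Kc167, with a median of 63. Each map merged 2 replicates per line, so no spread between replicates was available and no difference between the lines was tested. The paper reports more filtered reads for each Kc167 replicate than for either BG3 replicate, so the maps also differ in depth. The paper also thinned the Kc167 reads to a number similar to BG3, and reports similar distances between TAD borders with either Kc167 set. The part of depth in any difference between the maps was not tested here. Values for the members are set beside the same values over all autosomal protein-coding genes. The 95% Wilson intervals of shares cover counting error only. They and the order-statistic intervals of medians treat the genes as independent, although members of 1 array share a TAD. The upper limit given for a count of 0 is 3 counts of the total. The lines differ in sex, so the X was kept apart.

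The 5′ ends of the receptor genes were seldom at a TAD border. In BG3, 9 of 154 autosomal members (5.84%, interval 3.10 to 10.7) had their 5′ end at most 2 kb from a border, against 2038 of 11749 protein-coding genes (17.3%). In Kc167, 8 of 154 members (5.19%, interval 2.66 to 9.92) did so, against 2325 of 11749 genes (19.8%). Both intervals ended below the share of all genes. By family the count was 3 of 51 Or, 4 of 54 Gr and 2 of 49 Ir genes in BG3, and 2 of 51 Or, 4 of 54 Gr and 2 of 49 Ir genes in Kc167. With the limit at 5 kb, 25 of 154 members (16.2%) lay near a border in each map, against 30.1% of all genes in BG3 and 34.4% in Kc167.

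**Figure D1:**
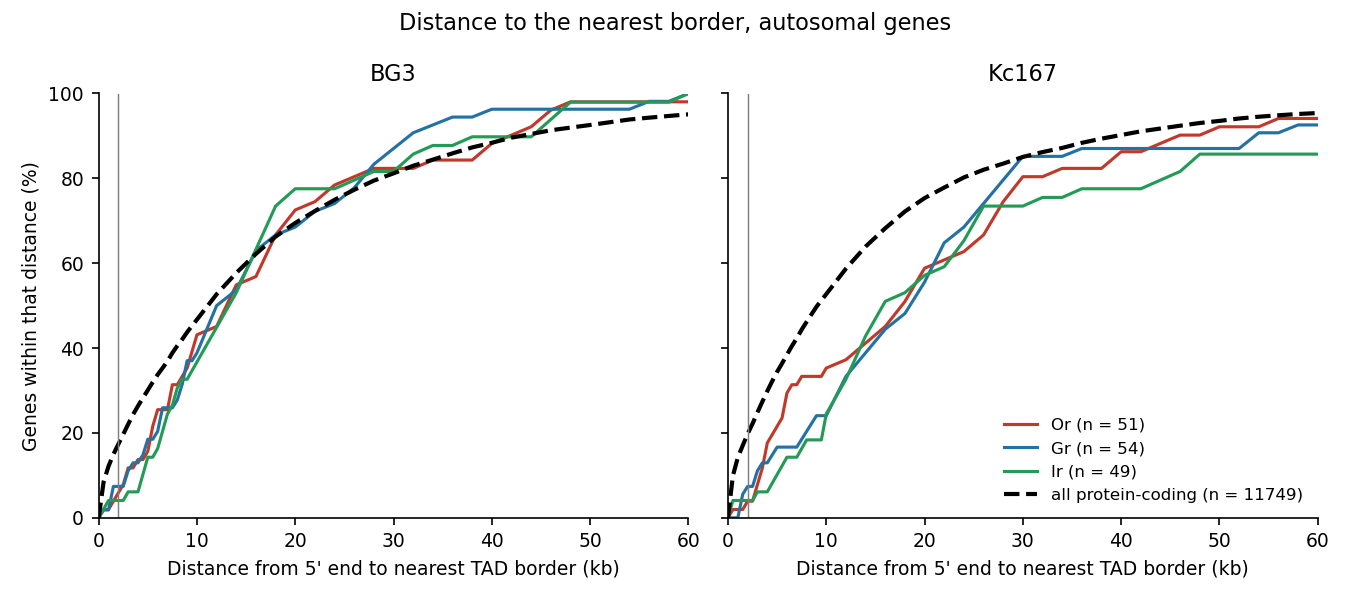
Share of autosomal genes (y axis, %) whose 5′ end lies within a given distance (x axis, kb) of the nearest TAD border, in BG3 (left) and Kc167 (right), for Or, Gr and Ir genes and all protein-coding genes (dashed); the vertical line is at 2 kb. The 3 receptor families run below the dashed line at 2 kb in both maps, and up to about 20 kb in Kc167.

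The median distance from a member's 5′ end to the nearest border was 13.0 kb in BG3 (order-statistic interval 11.1 to 15.0), against 11.1 kb over all autosomal genes. In Kc167 the median was 17.5 kb (interval 14.2 to 20.2), against 9.10 kb over all genes. Relative position, which is 0 at a TAD end and 1 at its centre, had a median of 0.46 for members in BG3 (interval 0.37 to 0.58), against 0.42 for all genes. In Kc167 it was 0.52 for members (interval 0.47 to 0.63), against 0.41 for all genes. In BG3 the intervals of the members held the median of all genes for distance and for relative position, and in Kc167 neither did. For distance in BG3 the margin was small, with the interval starting at 11.098 kb and the median of all genes at 11.103 kb. Because members of 1 array share a TAD, the intervals are too narrow, and this contrast between the maps carries little weight.

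How a 5′ end is annotated bears on these distances. For 114 of 154 autosomal members (74.0%) the annotated 5′ end was the first base of the coding sequence, against 475 of 11749 genes (4.04%), so the place where transcription starts is not given for most receptor genes. The annotation also held a single transcript start for 142 of 154 members (92.2%), against 74.3% of all genes. The regions around members had slightly fewer DpnII sites, with a median of 30 sites within 5 kb of the 5′ end against 34 over all genes, and borders can only be placed between such sites. The part of either in the distances was not tested.

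Of the Or genes, Or33c carried the nearest border in Kc167. Or33a, Or33b and Or33c form a tandem array of 3.46 kb on arm 2L, and Or33c is expressed in the maxillary palp. A Kc167 border at 2L:11937707 lay 262 bp upstream of Or33c and 1526 bp downstream of the Or33b 5′ end, between the 2 genes. In BG3 no border divided the array, the closest lay 9710 bp from that position, and the 3 genes shared a TAD of 32.3 kb. The window from 250 bases before to 50 bases after the Or33c 5′ end begins 12 bases from this border, and is shown because it is the single autosomal place where a border lies between the 5′ ends of an array of receptor genes, on chr2L:11937719-11938018, plus strand, of the Release 6 assembly (dm6), with the letters TATAAA on either strand in capitals.
Or33c: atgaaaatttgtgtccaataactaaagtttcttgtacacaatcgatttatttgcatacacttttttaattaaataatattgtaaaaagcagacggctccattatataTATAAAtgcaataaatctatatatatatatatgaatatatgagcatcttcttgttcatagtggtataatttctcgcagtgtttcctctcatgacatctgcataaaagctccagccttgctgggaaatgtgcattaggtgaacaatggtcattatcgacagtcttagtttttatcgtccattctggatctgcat

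Or65c, on arm 3L, had a BG3 border within the gene, 359 bp downstream of its 5′ end, at 3L:6327967, and the nearest Kc167 border to that position was 63300 bp away. Or94b, inside Nha2 on 3R, lay 1597 bp from a BG3 border, with the nearest Kc167 border 25455 bp from it. Or69a, on 3L, lay 1313 bp downstream of a BG3 border whose score exceeded that of 97.2% of BG3 borders, a score in which lower values mean fewer contacts across the border. The closest Kc167 border was 1631 bp from the BG3 one, and 2944 bp from the Or69a 5′ end. The borders are placed in the middle of restriction fragments, and the fragment that holds the Or69a border in BG3 is shown as an example of the finest unit of the map. It spans 185 bases at chr3L:12968955-12969139, plus strand, with the DpnII sites in capitals.
Or69a border: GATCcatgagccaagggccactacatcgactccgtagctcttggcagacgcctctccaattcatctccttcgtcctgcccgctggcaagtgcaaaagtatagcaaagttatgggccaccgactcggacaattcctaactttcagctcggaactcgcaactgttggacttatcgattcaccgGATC

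Among the Gr genes, Gr89a and Gr98d had the same border in both maps. On 3R, the border at 16497647 lay 1312 bp from the Gr89a 5′ end in BG3 and in Kc167, was on the stringent list of both, and Gr89a sat in a TAD of 76.5 kb in each map. The border at 27547305 lay within Gr98d, 1253 bp downstream of its 5′ end, in BG3 and in Kc167, and was on neither stringent list. Gr92a had a border 405 bp upstream in BG3 and one 1318 bp downstream in Kc167. Its 5′ end was thus at the left end of its TAD in BG3 and at the right end in Kc167. These borders were 1723 bp apart, and the paper treats a border shifted by less than 2 kb as fuzzy. Neither was on a stringent list. The BG3 fragment with the Gr92a border is shown for comparison with that of Or69a. It spans 252 bases at chr3R:20120530-20120781, plus strand, and its GC content was 29.4%, against 52.4% in the Or69a border fragment.
Gr92a border: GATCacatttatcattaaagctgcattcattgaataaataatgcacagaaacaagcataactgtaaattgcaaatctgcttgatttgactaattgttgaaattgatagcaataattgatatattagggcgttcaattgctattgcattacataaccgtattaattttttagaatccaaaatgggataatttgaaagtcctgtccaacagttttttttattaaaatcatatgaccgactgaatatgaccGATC

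Gr22f lay 1457 bp from a stringent BG3 border, and the 5′ end of CG17650 was closer to it, at 1185 bp. Gr94a, which lies within p53, the gene of the fly p53 protein, was 1520 bp from a Kc167 border. Of the Ir genes, Ir60b had a border 288 bp upstream at the same base, 2R:24515397, in both maps. The 5′ end of Letm1, which points away from Ir60b, was 77 bp from that border. Ir60e lay 483 bp from a Kc167 border that was 161 bp from the CG13585 5′ end. Ir48c had a BG3 border 768 bp downstream of its 5′ end, within its own body and within ths, the gene of an FGF ligand that contains Ir48c, and the nearest Kc167 border to it was 36413 bp away.

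The 9 autosomal members near BG3 borders were thus at 9 borders and the 8 near Kc167 borders at 7, of which 2 in BG3 and 1 in Kc167 were stringent. A gene that is no receptor had its 5′ end closer to 2 of the 9 BG3 borders and 2 of the 7 Kc167 borders. Ir60b, Gr89a, Gr92a and Gr98d were near a border in both maps, 5 members in BG3 alone and 4 in Kc167 alone. How all genes split between the maps was not counted, so this split is not a result about the receptor genes. The members just past the limit were Or65b (2355 bp) and Gr63a (2502 bp) in BG3, and Gr63a (2502 bp) and Ir31a (2584 bp) in Kc167.

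**Figure D2:**
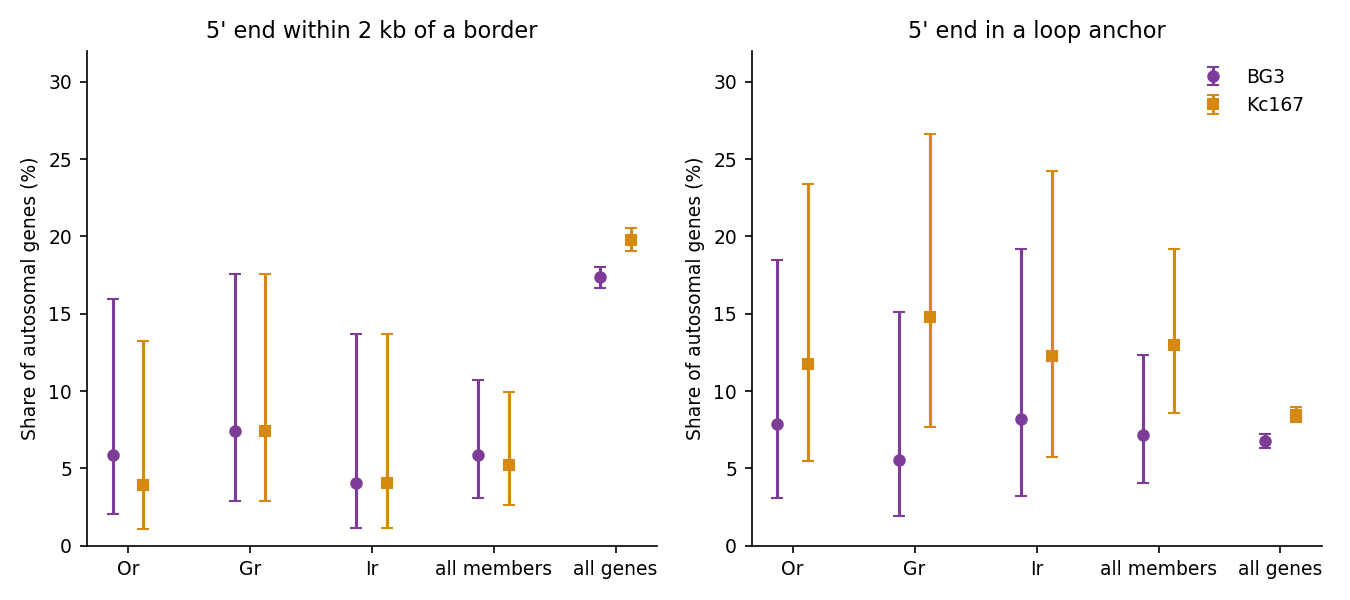
Share of autosomal genes (y axis, %) with the 5′ end within 2 kb of a TAD border (left panel) and in a loop anchor extended by 1 kb (right panel), for Or, Gr and Ir genes, all members and all protein-coding genes, in BG3 (circles) and Kc167 (squares); bars are 95% Wilson intervals. All members stand at 5.84% in BG3 and 5.19% in Kc167 at borders, below all genes at 17.3% in BG3 and 19.8% in Kc167.

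Arrays of receptor genes were nearly always held in 1 TAD. With neighbouring 5′ ends at most 20 kb apart, 77 autosomal members formed 28 arrays of 2 to 6 genes, 14 of them pairs, and 77 stood alone. The arrays spanned 0.131 to 17.9 kb, with a median of 5.16 kb. All 28 had every 5′ end in 1 TAD in BG3 and 27 did in Kc167, where the Or33 array was the exception. Counted as neighbouring pairs, 49 of 49 members' pairs lay in 1 TAD in BG3, against 9282 of 10418 neighbouring protein-coding genes at the same spacing (89.1%). In Kc167 it was 48 of 49 pairs, against 9155 of 10418 (87.9%). The intervals were 92.7 to 100% in BG3 and 89.3 to 99.6% in Kc167. Members were also closer together, with a median gap of 2154 bp against 2672 bp between all neighbours, and the part of spacing in these shares was not tested. Among pairs up to 2 kb apart, 22 of 22 members' pairs shared a TAD in BG3, against 93.1% of neighbours, and 21 of 22 (95.5%) in Kc167, against 92.2%. Among pairs 2 to 5 kb apart, 18 of 18 members' pairs did so in each map, against 90.1% of neighbours in BG3 and 88.5% in Kc167. Among pairs 5 to 20 kb apart, 9 of 9 members' pairs shared a TAD in each map, against 82.7% of neighbours in BG3 and 81.4% in Kc167. Member pairs pointed the same way in 39 of 49 cases (79.6%), against 45.5% of all neighbours.

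**Figure D3:**
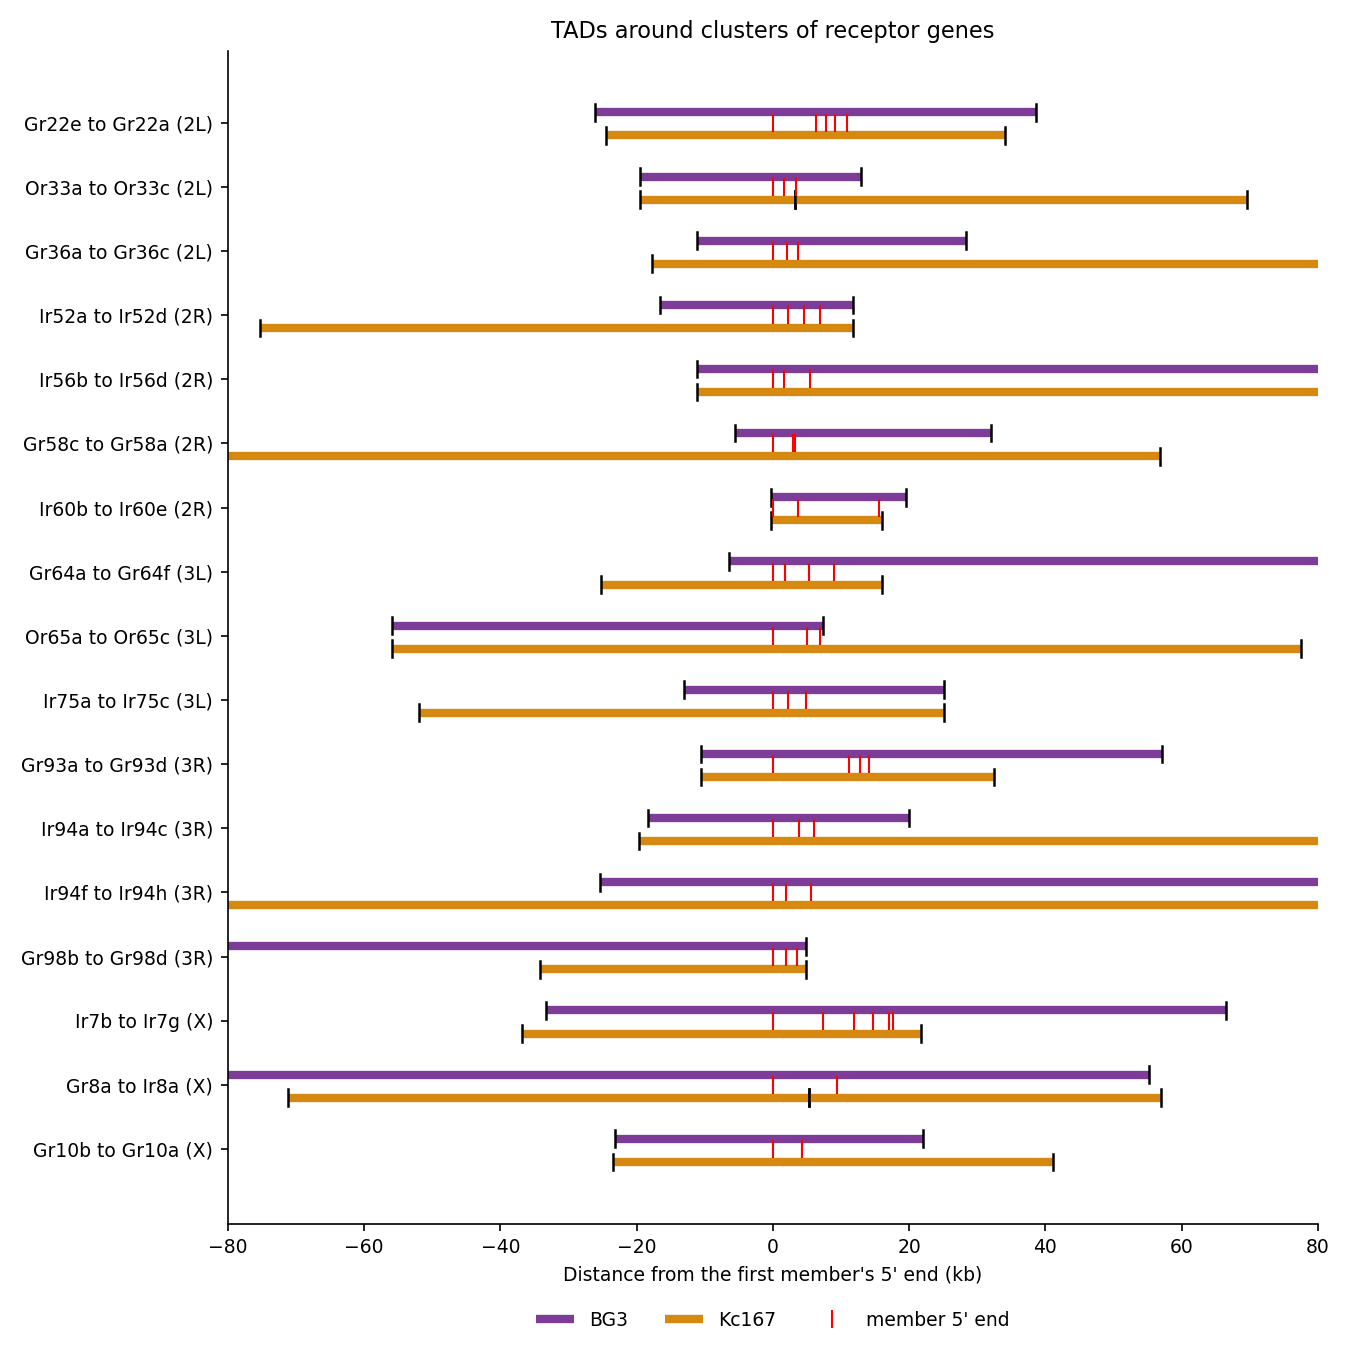
TADs around the receptor gene arrays of 3 or more members and the arrays divided by a border, with BG3 above Kc167 in each row; the x axis is the distance from the 5′ end of the first member (kb), red ticks are members' 5′ ends and black ticks TAD borders, and TADs that run past 80 kb are cut. A border falls inside the array for Or33a to Or33c and for Gr8a to Ir8a, both in Kc167.

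The Gr64 array on 3L, whose products sense sugars, had 6 genes within 9.03 kb. They shared a TAD of 87.0 kb with 22 gene 5′ ends in BG3 and one of 41.3 kb with 12 in Kc167, and the annotation gives Gr64b and Gr64c the same 5′ end. The 5 genes from Gr22e to Gr22a on 2L, which include bitter receptors, lay in a TAD of 64.8 kb in BG3 and of 58.6 kb in Kc167. In Kc167 they were the only protein-coding 5′ ends of that TAD, and BG3 added 1 other gene. The TAD around Ir60b, Ir60d and Ir60e was 19.9 kb wide in BG3 and 16.4 kb in Kc167, among the 3 narrowest with a member in each map. Gr93a to Gr93d, of which Gr93a is needed for caffeine taste, were in a TAD of 67.7 kb in BG3 and of 43.0 kb in Kc167.

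Other arrays had much wider TADs in Kc167. Gr36a to Gr36c lay in a TAD of 39.5 kb in BG3 and of 225.0 kb in Kc167. Gr58a to Gr58c lay in TADs of 37.7 kb in BG3 and of 235.8 kb in Kc167, and Ir94a to Ir94c in TADs of 38.2 kb in BG3 and of 168.3 kb in Kc167. The pairs Gr59a with Gr59b and Gr59c with Gr59d were in separate TADs of 54.5 and 132.8 kb in BG3 and together in 1 TAD of 412.8 kb with 54 gene 5′ ends in Kc167. In the same way Ir94d and Ir94e, of which Ir94e takes part in taste, were in a TAD of 97.7 kb and Ir94f to Ir94h in one of 145.0 kb in BG3, and all 5 shared a TAD of 276.3 kb in Kc167. For Ir52a to Ir52d, which include the courtship taste receptors Ir52c and Ir52d, the TAD was 28.4 kb in BG3 and 87.2 kb in Kc167. The acid sensors Ir75a, Ir75b and Ir75c were in TADs of 38.2 kb in BG3 and of 77.1 kb in Kc167.

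The reverse was seen at the Gr98 array. Gr98b to Gr98d were in a TAD of 188.6 kb in BG3 and of 38.9 kb in Kc167. The border within Gr98d closed both. Ir56b to Ir56d, of which Ir56d is required for fatty acid taste, had TADs of 133.6 kb in BG3 and of 99.0 kb in Kc167. For Or65a to Or65c the wider TAD was that of Kc167, with 63.3 kb in BG3 and 133.5 kb in Kc167. Counting whole genes rather than 5′ ends, 26 of the 28 arrays were held in 1 TAD in each map, the exceptions being the arrays of Or65c and Gr98d in BG3 and those of Or33 and Gr98d in Kc167.

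Over all autosomal members, the TAD around the 5′ end had a median width of 64.8 kb in BG3 (interval 56.9 to 71.7), against 61.1 kb over all autosomal genes. In Kc167 the medians were 65.6 kb for members (interval 58.6 to 77.1) and 48.5 kb for all genes. For Or genes the median was 71.7 kb in BG3 (interval 61.7 to 86.9) and 63.1 kb in Kc167 (54.4 to 80.7). For Gr genes it was 65.3 kb in BG3 (56.9 to 71.7) and 58.6 kb in Kc167 (43.0 to 71.3), and for Ir genes 45.5 kb in BG3 (38.2 to 79.7) and 87.2 kb in Kc167 (63.2 to 102.2). The intervals of both maps overlapped in each family. Gene by gene, the TAD was more than 1.5 times wider in BG3 for 35 of 153 members and more than 1.5 times wider in Kc167 for 50. Over all genes the order was the other way round, with 30.1% wider in BG3 and 17.4% wider in Kc167. Members that share a TAD were counted separately, as for the 5 in the Kc167 TAD of 276.3 kb and the 4 in that of 412.8 kb. The members' counts are thus not independent, and the comparison was not made with each TAD taken once. Ir21a, a cool receptor at the tip of 2L, lay in no TAD of either map, 47948 bp from the first border.

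**Figure D4:**
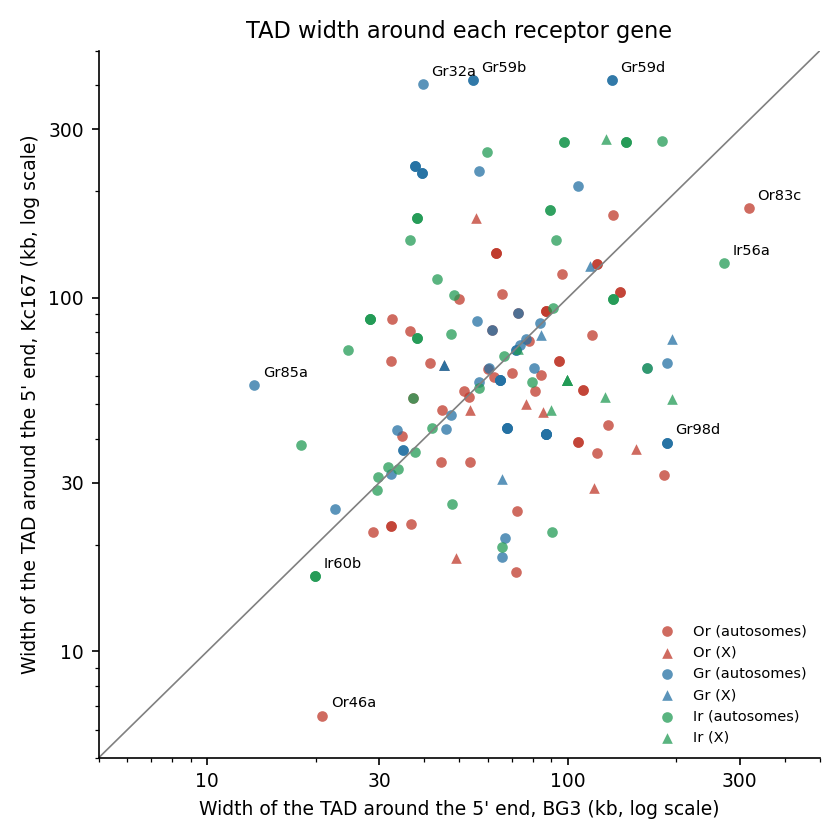
Width of the TAD around the 5′ end of each receptor gene in BG3 (x axis) and Kc167 (y axis), both in kb on log scales, with colours for the families, circles for autosomes and triangles for the X; the line marks equal width, and genes of 1 array overlie each other. Gr59d stands at 132.8 kb in BG3 and 412.8 kb in Kc167, and Or46a at 20.9 kb in BG3 and 6.58 kb in Kc167.

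The widest TADs with a member in BG3 were those of Or83c (318.1 kb), Ir56a (272.1 kb) and the X-linked Gr8a and Ir8a (194.2 kb). In Kc167 they were those of Gr59a to Gr59d (412.8 kb), Gr32a (402.0 kb) and the X-linked Ir11a (282.2 kb). Gr32a, a receptor for bitter compounds and pheromones, was in a TAD of 39.7 kb in BG3. The narrowest TADs held Gr85a (13.5 kb), Ir100a (18.2 kb) and the Ir60 array (19.9 kb) in BG3, and Or46a (6.58 kb), the Ir60 array (16.4 kb) and Or71a (16.8 kb) in Kc167. Some members had a TAD with no other protein-coding 5′ end. In BG3 these were Ir40a, Ir48c and Ir68a, of which Ir40a and Ir68a are humidity receptors. In Kc167, 9 autosomal TADs held only members, among them the Gr22 array, Or85b with Or85c, Gr39a, Or71a and Ir68a. How many of all TADs hold a single gene was not counted, so these counts are not a result about the receptor genes.

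Receptors with a known role were spread over TADs of all widths. The co-receptors Ir25a and Ir76b sat in TADs whose 2 ends lay within 2 kb of those of a TAD in the other map, with widths of 37.6 kb in BG3 and of 36.5 kb in Kc167 for Ir25a and of 31.8 kb in BG3 and of 33.3 kb in Kc167 for Ir76b. Ir8a, the co-receptor of acid-sensing Irs, was in a TAD of 194.2 kb in BG3 and of 51.7 kb in Kc167. Of the sugar receptors outside the Gr64 array, Gr43a, the fructose receptor, was in TADs of 22.6 kb in BG3 and of 25.2 kb in Kc167 and Gr61a in TADs of 46.0 kb in BG3 and of 42.6 kb in Kc167. Gr5a, the trehalose receptor, was in TADs of 65.9 kb in BG3 and of 30.7 kb in Kc167.

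Gr21a and Gr63a, which together sense carbon dioxide, are not neighbours. Gr21a had TADs of 106.8 kb in BG3 and of 207.8 kb in Kc167, and Gr63a lay 2502 bp from the same border in both, in TADs of 56.1 kb in BG3 and of 86.1 kb in Kc167. Among bitter receptors, Gr33a was 4050 bp from a border in each map, in TADs of 73.7 kb in BG3 and of 73.5 kb in Kc167, whereas Gr66a was in TADs of 65.8 kb in BG3 and of 18.4 kb in Kc167. Gr28a and Gr28b, of which Gr28b has a warmth-sensing isoform, shared a TAD of 71.7 kb in BG3 and of 71.3 kb in Kc167.

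A chosen list, which need not be complete, held 12 odorant receptors with known ligands, 1 of them X-linked. None of the 12 was within 2 kb of a border in either map. This allows a share of up to 25%, above the 17.3% of autosomal genes in BG3 and the 19.8% in Kc167. Their distances were 5.42 to 47.3 kb in BG3 and 5.96 to 44.7 kb in Kc167. Or67d, the receptor of the male pheromone cis-vaccenyl acetate, lay 47.3 kb from a border in BG3 and 18.9 kb in Kc167. Or56a, the geosmin receptor, lay 23.2 kb from a border in BG3 and 27.3 kb in Kc167. Or42b, which responds to vinegar odours, lay 44.7 kb from a border in each map. Of the pheromone receptors, Or47b was in a TAD of 61.7 kb in BG3 and of 81.2 kb in Kc167, and Or88a in one of 129.6 kb in BG3 and of 43.7 kb in Kc167. The amine sensor Ir41a lay 16.5 kb from a border in BG3 and 121.9 kb in Kc167, in TADs of 59.9 kb in BG3 and of 259.2 kb in Kc167.

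Few receptor genes were in a TAD that was the same in both lines. In BG3, 20 of 154 autosomal members (13.0%, interval 8.57 to 19.2) were in a TAD with both ends within 2 kb of those of 1 Kc167 TAD, against 22.8% of all genes. In Kc167, 21 of 154 members (13.6%, interval 9.10 to 19.9) were in such a TAD, against 22.8% of all genes. Members that share a TAD were counted separately, so the intervals are too narrow, and the share was not taken with each TAD once. By family the count was 2 of 51 Or, 10 of 54 Gr and 8 of 49 Ir genes in BG3, and 2 of 51 Or, 11 of 54 Gr and 8 of 49 Ir genes in Kc167. The 2 Or genes were Or67b and Or74a. Those of the Gr family included Gr28a, Gr28b, Gr33a, Gr39a, Gr43a and Gr89a, and Gr89a was the single autosomal member whose TAD had the same width, 76.5 kb, in both.

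Counted by their 5′ ends, the receptor genes were close to or above all genes at loops. In BG3, 11 of 154 autosomal members (7.14%, interval 4.03 to 12.3) had a 5′ end in a loop anchor extended by 1 kb on each side, against 6.77% of all autosomal genes. In Kc167, 20 of 154 (13.0%, interval 8.57 to 19.2) did, against 8.48% of all genes. These came from 7 loops in BG3 and 13 in Kc167, because genes of 1 array fell in 1 anchor, so the intervals are too narrow. With the anchors not extended the counts were 8 members (5.19%) against 3.38% of genes in BG3 and 10 members (6.49%) against 4.03% in Kc167. With every q-value of the loop at most 0.01 they were 8 members (5.19%) against 5.21% of genes in BG3 and 12 members (7.79%) against 6.68% in Kc167. The members' loops had a median length of 30 kb in BG3 and of 28 kb in Kc167, against 26 kb over all autosomal loops in BG3 and 28 kb in Kc167.

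The 8 members with a loop in both maps were Or22a, Or22b, Gr22e, Ir48c, Ir52b, Ir52c, Gr58a and Gr58b. Or22a and Or22b, tandem genes for receptors of fruit esters, shared an anchor whose loop of 20 kb was called in the same pixel in both maps. It held 57 contacts in BG3, 2.80 times the number expected from its surroundings, and 40 contacts in Kc167, 2.45 times the number expected. The other anchor held no protein-coding 5′ end. The windows of both genes are shown because they share this anchor, from 250 bases before to 50 bases after each 5′ end, at chr2L:1520241-1520540 for Or22a and chr2L:1522447-1522746 for Or22b, plus strand, with the letters TATAAA in capitals.
Or22a: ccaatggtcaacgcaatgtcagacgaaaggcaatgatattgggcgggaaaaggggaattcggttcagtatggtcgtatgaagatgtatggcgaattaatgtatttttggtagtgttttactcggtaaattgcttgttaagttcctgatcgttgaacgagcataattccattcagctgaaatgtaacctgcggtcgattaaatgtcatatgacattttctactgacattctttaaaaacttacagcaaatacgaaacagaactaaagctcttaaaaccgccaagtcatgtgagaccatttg
Or22b: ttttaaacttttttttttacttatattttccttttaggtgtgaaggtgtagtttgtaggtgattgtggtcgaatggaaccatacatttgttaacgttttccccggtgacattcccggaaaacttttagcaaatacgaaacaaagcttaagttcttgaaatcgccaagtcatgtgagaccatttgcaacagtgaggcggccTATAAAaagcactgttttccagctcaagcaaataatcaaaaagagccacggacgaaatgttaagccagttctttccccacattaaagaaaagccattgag

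Over 173 bases that a global alignment with free ends paired between the 2 windows, 141 were identical (81.5%). The letters TATAAA or their complement were in the Or22b window and not in that of Or22a. However, the last bases of the Or22a window recur in the Or22b window shortly before TATAAA. The matching position of Or22a thus lies past the end of its window and was not searched. Gr22e, at one end of the Gr22 array, had a loop of 38 kb in BG3 with 19 contacts, 4.61 times the number expected, and a loop of 40 kb in Kc167 with 45 contacts, 2.86 times the number expected. Both loops crossed a TAD border, and their other anchors held no protein-coding 5′ end. The Gr22e window is at chr2L:1783812-1784111, plus strand, and is shown as the other looped member of both maps on that arm, with TATAAA and its complement in capitals.
Gr22e: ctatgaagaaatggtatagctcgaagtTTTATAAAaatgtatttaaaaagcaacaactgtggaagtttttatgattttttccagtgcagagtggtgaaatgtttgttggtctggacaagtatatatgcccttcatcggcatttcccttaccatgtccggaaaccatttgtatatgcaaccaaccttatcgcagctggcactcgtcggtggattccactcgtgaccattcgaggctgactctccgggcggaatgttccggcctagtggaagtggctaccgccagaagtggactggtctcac

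The loop at Ir52b and Ir52c was also in the same pixel in both maps, 16 kb long, with 80 contacts in BG3 (1.97 times the number expected) and 135 in Kc167 (2.0 times). The loop at Ir48c was among the longest of the members in both maps. It spanned 78 kb in BG3, where it held 72 contacts, 4.60 times the number expected, and the other anchor held the 5′ end of pyr, the second FGF ligand gene beside ths. In Kc167 it spanned 84 kb and held 126 contacts, 2.48 times the number expected, and no protein-coding 5′ end was in the other anchor. Since Ir48c lies inside ths, the anchor is also a part of ths. The loop at Gr58a and Gr58b was 30 kb long in BG3 with 54 contacts (2.30 times the number expected), and 28 kb long in Kc167 with 81 contacts (1.88 times).

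In BG3 alone, Or33b and Or33c shared a loop of 56 kb with 35 contacts, 3.76 times the number expected, and Ir75d had one of 16 kb with 36 contacts, 1.90 times. Or33b and Or33c were thus in a loop anchor in BG3 and at a border in Kc167. The autosomal loop list was longer in Kc167, with 1126 loops against 771 in BG3. How all genes with a loop split between the maps was not counted, so the members' split is not a result about receptor genes. In Kc167 alone, 12 members had a loop. They were Or47b, Ir60b, Or65b, Or65c, Ir75a, Ir75b, Or85d, Gr93b, Gr93c, Gr93d, Gr98b and Gr98c. For 4 of them, Or47b and Gr93b to Gr93d, the BG3 list held a loop with both anchors within 10 kb, although the member was not in its anchor. The most contacts were in the loop at Or47b, with 176 (1.76 times the number expected), and in that at Gr93b to Gr93d, with 158 (1.78 times). Gr98b was in the anchors of 2 loops, of 34 and 70 kb, with 53 and 48 contacts. The loop at Ir60b was the longest, 104 kb, and its anchors also held the 5′ ends of Letm1 and of SerT, the serotonin transporter gene. No autosomal loop joined 2 receptor genes at its opposite anchors, and the far anchor held no protein-coding 5′ end in 5 of 7 loops in BG3 and 10 of 13 in Kc167. The same was not counted over the loops of all genes, so it is not a result about the receptor genes.

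Ir48c in BG3 and Ir60b in Kc167 were the only autosomal members with both a border within 2 kb and a loop in 1 map. The pixels rested on 19 to 80 contacts for the autosomal members' loops in BG3 and on 38 to 176 in Kc167, and the lowest and highest counts were larger in Kc167.

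On the X the maps stood further apart. In BG3, none of 25 members was within 2 kb of a border, which allows a share of up to 12.0%, against 14.8% of X-linked genes, and 3 of 25 in Kc167 were, against 20.8%. The 3 were Gr2a at 1744 bp, Or9a at 700 bp and Or19b at 974 bp, and the 5′ end of Neb-cGP was closer to the border near Or9a, at 360 bp. The median TAD around X-linked members was 99.8 kb wide in BG3, against 91.3 kb over all X-linked genes, and 58.6 kb in Kc167, against 51.7 kb. In 16 of 25 members it was more than 1.5 times wider in BG3 and in 2 more than 1.5 times wider in Kc167. The same count was not made over all X-linked genes, whose median was also wider in BG3. Members of 1 array share a TAD here too, so these counts are not a result about the receptor genes.

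Loops at X-linked members were called in Kc167 alone. There were 0 of 25 in BG3, which allows a share of up to 12.0%, above the 3.64% of X-linked genes. In Kc167 there were 7 of 25, against 8.97%. The 7 were Ir7a, Ir7b, Ir7e, Ir7f, Ir7g, Gr8a, the L-canavanine receptor, and Or19a. Of the 5 loops, 1 had receptor genes at both anchors, Ir7b at one and Ir7e, Ir7f and Ir7g at the other, 16 kb apart with 166 contacts, 1.82 times the number expected. BG3 had 92 X-linked loops in all and Kc167 had 283. The 6 genes from Ir7b to Ir7g shared a TAD of 99.8 kb in BG3 and of 58.6 kb in Kc167. Gr8a and Ir8a, 9.45 kb apart, shared a TAD of 194.2 kb in BG3 and were divided by a border in Kc167, 5309 bp from Gr8a and 4139 bp from Ir8a. Gr10a and Or10a, a receptor of methyl salicylate, have the same annotated 5′ end, so they are 2 members at 1 position. The line's sex and the map cannot be told apart on the X.

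The 5′ windows of the autosomal receptor genes were searched for 5 short motifs. In the 300 bases from 250 before to 50 after the 5′ end, on both strands, the letters TATAAA of the TATA box, a core promoter element, were in 41 of 51 Or windows (80.4%), 15 of 54 Gr windows (27.8%) and 28 of 49 Ir windows (57.1%), against 46.8% of all autosomal protein-coding genes. The DRE letters TATCGATA, which the factors Dref and BEAF-32 can bind, were in 1 of 154 members' windows (0.65%), against 8.56% of all genes. The letters GGTCACACT of the core promoter element called motif 1 were in 0 of 154, which allows a share of up to 1.95%, against 5.94% of all genes. The letters GAGAG, bound by GAGA factor, were in 31 of 154 (20.1%), against 30.1%, and the DpnII letters GATC in 46 of 154 (29.9%), against 44.9%. None of these motifs contains another. For most members the window starts from a coding start and not from a mapped start of transcription.

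**Figure D5:**
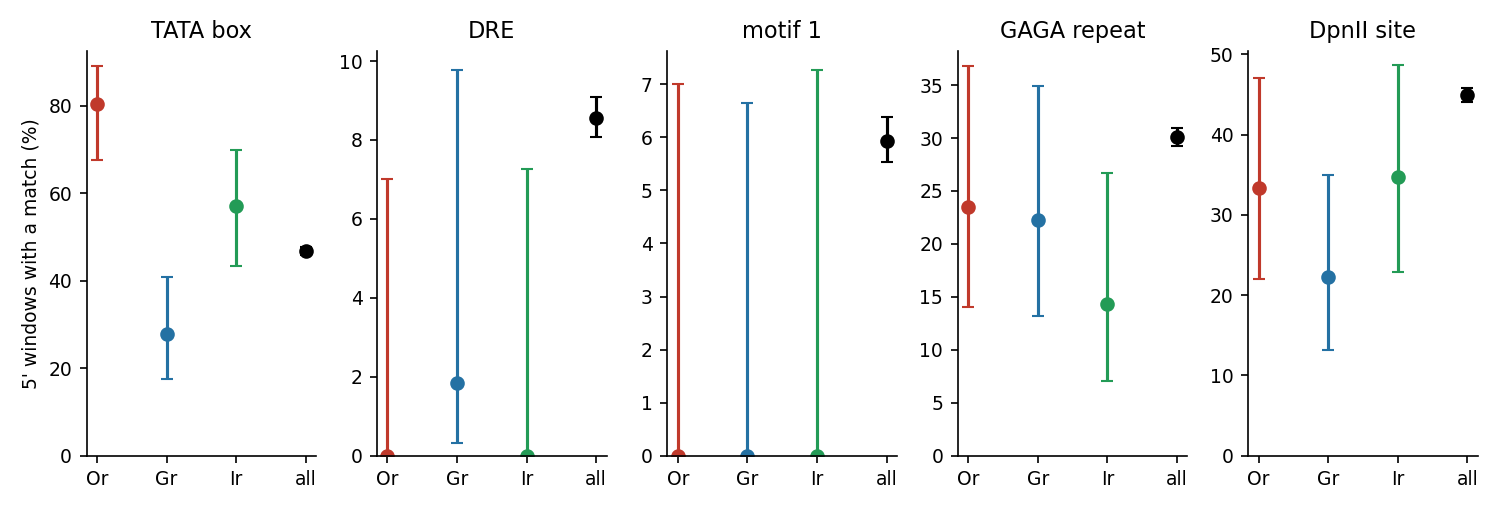
Share of 5′ windows of 300 bases (y axis, %) that hold each motif on either strand, for autosomal Or, Gr and Ir genes and all protein-coding genes; bars are 95% Wilson intervals and the y axes differ between panels. The TATA box letters are in 80.4% of Or windows and 27.8% of Gr windows, against 46.8% of all windows.

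GC content of the windows had a median of 39.3% for members and 37.7% for all genes. Members were shorter, with a median length of 1656 bp against 2102 bp, and had fewer neighbours, with a median of 5 other 5′ ends within 20 kb against 7. The whole gene lay inside another gene for 24 of 154 members (15.6%), against 11.0% of all genes, as for Ir48c in ths, Or59b and Or59c in CG43795, and Gr68a, a gene active in male courtship, in loaf.

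Other chemosensory genes were counted in the same way. Of 46 autosomal odorant binding protein genes, whose secreted products carry odorants, 7 were within 2 kb of a border in BG3 and 7 in Kc167 (15.2% in each, interval 7.57 to 28.2), and 4 in BG3 and 2 in Kc167 were in a loop anchor. Of 12 autosomal ionotropic glutamate receptor genes outside the Ir symbols, none was within 2 kb of a border in either map, which allows a share of up to 25%, and 2 in BG3 and 3 in Kc167 were in a loop anchor. Of 6 autosomal partners and regulators, among them Orco and Snmp1, a membrane protein needed for pheromone detection, 1 was within 2 kb of a border in BG3 and none in Kc167. Over all autosomal genes the shares were 17.3% at borders and 6.77% in loop anchors in BG3, and 19.8% at borders and 8.48% in loop anchors in Kc167. These lists are small, and their difference from the receptor genes was not tested.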

How the data were processed

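The authors deposited TAD lists and loop lists made from in situ Hi-C, with 2 biological replicates per line merged. Tools listed in the submitters' processing notes were Juicer 1.7.6 and BWA 0.7.15-r1140, with dm6 as the build. By the methods, HiCExplorer called the TADs at 2 settings of its threshold, and HiCCUPS the loops at 2 kb. The deposited files hold a TAD separation score per border, and per loop the raw contact count of the pixel, the expected signal from its surroundings and q-values.

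Genes came from Ensembl 115. In the Release 6 genome, 93.9% of BG3 and 94.9% of Kc167 borders lay within 2 bp of the middle of a DpnII fragment, so the builds match. Borders are TAD ends, and 5′ ends follow the gene's strand. The scripts ran in Python 3.11.15 with SciPy 1.17.1, NumPy 2.4.6 and Matplotlib 3.10.9. On simulated maps, all 700 planted answers were recovered. No test was run. Members named with values were those at borders or loops, in arrays of 3 or more, in divided arrays, in the widest and narrowest TADs, and receptors of known role. The members, lists and 70 alternatives were chosen with earlier results of these data known. A contact map of Kc167 thinned to fewer reads was not analysed here.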

Additional observations from a re-analysis of the deposited data

How the results depend on the processing

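Of 70 alternative settings, 48 left the value within 1.5 times the count or within the interval of the median. The number of members near a border moved with the limit, to 4 in BG3 and 3 in Kc167 at 1 kb and 25 in each at 5 kb, to 2 in BG3 and 1 in Kc167 with stringent TADs, and to 15 in BG3 with any base of the gene. In each of these settings the share of all genes was larger than that of the members. With stringent TADs the median distance was 51.02 kb in BG3 and 36.4 kb in Kc167. This reversed the order of the maps, which was 13.0 kb in BG3 and 17.5 kb in Kc167 with the main lists. The median width with stringent TADs was 218.9 kb in BG3, against 221.1 kb over all genes, and 200.8 kb in Kc167, against 141.0 kb. Members in a TAD kept in the other map numbered 4 in each map at 500 bp, 33 in each at 5 kb and 12 in each with stringent TADs. Neither these counts nor the stringent distances were taken over all genes, so they are given for the members only. Members in loop anchors numbered 32 in BG3 and 46 in Kc167 with anchors extended by 5 kb (20.8% against 18.3% of all genes in BG3, 29.9% against 24.4% in Kc167), 17 in BG3 with any base of the gene, 10 in Kc167 with no extension and 12 in Kc167 with all q-values at most 0.01 (7.79% against 6.68% of all genes). With any base of the gene the share in BG3 was 11.0%, below 13.6% of all genes, so the order of members and all genes at BG3 loops depends on this choice. In Kc167 it was 28 members (18.2%), against 18.0% of all genes, so the higher share of members there depends on this choice too. With gaps of up to 50 kb, 26 of 29 arrays and 52 of 55 neighbouring pairs were in 1 TAD in each map. All neighbouring genes were not counted at that gap. All 28 arrays with gaps of up to 20 kb were in 1 TAD of either stringent map.

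No paired analysis was possible because each line has 1 merged map. Leaving out a replicate was not run, since the lists are merged. Contacts per pixel and the length of DpnII fragments limit how finely borders and loops are placed.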
